A study of Mus musculus with 12 samples.

Results

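The endoplasmic reticulum (ER) stress and integrated stress response genes described here were 35 genes chosen by symbol from a table of transcript abundance with 57180 genes and 12 mouse libraries, and all 35 were found. They comprised 3 stress sensors of the ER membrane (Ern1, Eif2ak3 and Atf6), 2 transcription factors (Xbp1 and Atf4), 15 chaperones and folding enzymes, 5 genes of ER-associated degradation, and 10 targets of ATF4 or CHOP. The libraries fell into 4 groups of 3: liver of mice given carbon tetrachloride (CCl4), a solvent toxic to hepatocytes, liver of mice given vehicle, CX3CR1+ cells from the back skin of mice given CCl4, and the same cells of mice given vehicle. The series' design text gives C57 mice for the liver libraries, bulk RNA-seq of poly(A) RNA. It gives Cx3cr1-creER:Ai9 mice for the skin libraries, made by smart-seq, and 3 biological replicates per group in both tissues. In that strain a tamoxifen-inducible Cre recombinase under the Cx3cr1 promoter can switch on a red reporter in cells that carry the fractalkine receptor. The design text speaks of hepatocytes where the labels speak of liver. Dose, time after treatment, age and sex are not stated in the labels or the design text.

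As background, unfolded protein in the ER is sensed by IRE1 (Ern1), PERK (Eif2ak3) and ATF6. IRE1 splices the Xbp1 transcript and ATF6 is cleaved, and both then raise chaperones, folding enzymes and degradation factors. PERK, like other kinases that answer amino acid shortage, heme shortage or viral RNA, phosphorylates eIF2alpha, which slows translation in general while the ATF4 protein is made. ATF4 and its target CHOP (Ddit3) act on genes of amino acid supply, feedback and cell death. In liver the pathway is known for handling the load of secreted plasma proteins. All values below are gene-level transcript levels, so Xbp1 splicing, eIF2alpha phosphorylation and ATF4 translation were not measured.

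The promoters were searched for 2 sequence elements known from these pathways, on both strands of the 300 bases from 250 before to 50 after each gene's start (RefSeq sequences, build GRCm38.p6, 31 of the 35 genes with an entry). The ER stress element, CCAAT and CCACG with 9 bases of any kind between them, is bound by ATF6 together with NF-Y. It was in 0.119% of all 32851 promoters, and in those of 7 of the 13 chaperone and folding genes with an entry (Calr, Canx, Creld2, Dnajc3, Hsp90b1, Hspa5 and Pdia6) and of Derl3. None of the 10 ATF4 and CHOP targets had it. The core of the element shared by ATF4 and C/EBP proteins, TTNCATCA, was in 3.97% of all promoters. It was in those of 6 of the 10 targets (Asns, Atf3, Chac1, Nupr1, Trib3 and Vldlr) and of Herpud1, and in none of the 13 chaperones. In Trib3 it lay after the start of the gene. The 5 letters CCACG alone, which are part of the ER stress element, were in 32.8% of all promoters, in 12 of the 13 chaperones and in 6 of the 10 targets. A match describes letters in this window and is not a measured binding site. Ddit3, Ppp1r15a and P4hb, described below, had neither the full ER stress element nor the ATF4 element in this window. The following windows of 100 bases are shown for some of the genes with an element before their start. Each is on the strand of its gene, with the element in capitals.
Hspa5 (chr2:34771984-34772083, plus strand): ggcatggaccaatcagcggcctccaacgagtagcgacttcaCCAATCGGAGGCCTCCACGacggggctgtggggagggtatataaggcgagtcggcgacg
Hsp90b1 (chr10:86705493-86705592, minus strand): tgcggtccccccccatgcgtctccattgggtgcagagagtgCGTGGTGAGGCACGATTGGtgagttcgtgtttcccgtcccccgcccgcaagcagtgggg
Creld2 (chr15:88819479-88819578, plus strand): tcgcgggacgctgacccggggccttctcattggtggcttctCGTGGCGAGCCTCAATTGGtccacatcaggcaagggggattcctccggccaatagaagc
Calr (chr8:84847035-84847134, minus strand): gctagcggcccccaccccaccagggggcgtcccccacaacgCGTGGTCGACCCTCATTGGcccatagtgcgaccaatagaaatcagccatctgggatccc
Herpud1 (chr8:94386271-94386370, plus strand): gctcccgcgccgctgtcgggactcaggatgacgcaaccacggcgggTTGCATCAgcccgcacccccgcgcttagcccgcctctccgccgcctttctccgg
Nupr1 (chr7:126625527-126625626, minus strand): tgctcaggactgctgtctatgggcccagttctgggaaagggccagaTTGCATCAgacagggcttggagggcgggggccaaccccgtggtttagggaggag
Asns (chr6:7693210-7693309, minus strand): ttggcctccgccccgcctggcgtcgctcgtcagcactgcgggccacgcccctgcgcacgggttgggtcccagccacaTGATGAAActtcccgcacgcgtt
Chac1 (chr2:119351003-119351102, plus strand): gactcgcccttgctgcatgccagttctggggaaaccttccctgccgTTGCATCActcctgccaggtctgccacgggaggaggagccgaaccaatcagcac
Atf3 (chr1:191183390-191183489, minus strand): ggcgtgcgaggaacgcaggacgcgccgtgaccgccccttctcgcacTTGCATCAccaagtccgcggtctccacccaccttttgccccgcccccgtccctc
In Hspa5 the element lay 65 to 47 bases before the start, and in Nupr1 and Atf3 the ATF4 element lay 110 to 103 bases before it.

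Several properties of the libraries bear on every value. TPM, a transcript abundance per length, shares out a fixed total, and in liver the mitochondrially encoded genes with their nuclear near-copies held 76.8% ± 7.60 of it with CCl4 and 26.7% ± 1.51 with vehicle (SD, n = 3 each). The median log2 change of all genes tested in liver was -0.59 as deposited, -0.11 with median-ratio scaling, -0.12 with quantile normalization, and 0.85 when the total was rebuilt without mitochondrial genes and copies, so liver changes of the 35 genes are given beside these scalings, and those of other genes with how many calls held under all 3. Liver libraries listed 19473 to 20757 genes above 0 with CCl4 and 17568 to 17828 with vehicle. All 10 hepatocyte markers were lower with CCl4, summing to 12847 to 30603 TPM with CCl4 and 66019 to 73636 TPM with vehicle, whereas all 8 macrophage, all 6 endothelial and all 6 tested stellate and fibroblast markers were higher. Of the 10 hepatocyte falls 5 held under all 3 other scalings, and all of these rises did. In skin, Cx3cr1 itself had 5.28, 0 and 0.28 TPM in CCl4 libraries, against 3.91, 0.27 and 0.91 TPM in vehicle libraries, so the defining transcript was low or listed at 0. The myeloid gene Tyrobp had 1252, 765 and 70.2 TPM with CCl4, against 1468, 1463 and 3365 TPM with vehicle. Markers of other cells were present in skin too. Keratinocyte markers summed to 1123 to 3529 TPM with CCl4 and 1390 to 3097 TPM with vehicle. Fibroblast markers summed to 608 to 8092 and 2752 to 8122 TPM, and those of T and NK cells to 1262 to 3301 and 964 to 7652 TPM. The share of CX3CR1+ cells in these libraries was not measured. Skin CCl4 replicate 3 stood apart: its 8 macrophage markers summed to 307 TPM, against 6858 and 9146 TPM in replicates 1 and 2 and 8811 to 25277 TPM with vehicle. Its 8 Langerhans and dendritic cell markers summed to 185 TPM, against 36047 and 15854 TPM in replicates 1 and 2 and 49999 to 58746 TPM with vehicle. Skin changes of the 35 genes named below are therefore also given without CCl4 replicate 3. Langerhans and dendritic cell markers were lower in every CCl4 library than in any vehicle library, while macrophage markers overlapped. So were 6 markers of CX3CR1+ cells, at 4030, 2427 and 1343 TPM with CCl4 and 4370 to 9006 TPM with vehicle. Treatment and cell composition thus cannot be told apart in skin, also without replicate 3.

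In liver, CHOP (Ddit3) and 4 other listed targets of ATF4 or CHOP had higher transcript levels with CCl4, as deposited and under the 3 other scalings. Among them Nupr1 and Asns passed the filter for testing only through their CCl4 livers, so this count was partly set by the filter. Ddit3, Trib3 and Ppp1r15a were past 1 TPM in every vehicle liver. The result for chaperones and folding enzymes depended on the scaling: 12 of 15 did not pass as deposited, whereas 8 rose with quantile normalization and 14 rose without mitochondrial genes and copies. The largest falls as deposited were those of the degradation factor Herpud1 and the folding enzyme P4hb, and neither held under all 3 other scalings. Of the 35 genes, 34 passed the filter of at least 1 TPM in at least 3 of the 6 libraries, and 6 rose, 5 fell and 23 did not pass (limma on log2(TPM + 1), adjusted p under 0.05 over all genes tested). Among all 10385 genes tested, 10.3% rose and 51.1% fell. The rises were Nupr1, Ddit3, Asns, Creld2, Ppp1r15a and Trib3, and all 6 were also called under the 3 other scalings, as were 9.77% of all genes tested. The limit set by the filter holds here too for Nupr1 and Asns. The falls were Herpud1, P4hb, Calr, Edem1 and Ern1, and 0 of these 5 held under all 3. Among all genes tested 432 of the 5304 falls held. With median-ratio scaling 9 genes rose, adding Hspa5, Eif2ak3 and Derl3, and 2 fell, P4hb and Herpud1, beside 17.7% and 26.2% of all genes. With quantile normalization 14 rose and 1 fell, beside 17.6% and 24.1%, and without mitochondrial genes and copies 31 rose and 0 fell, beside 66.8% and 4.2%. Without liver CCl4 replicate 3, 4 genes rose and 17 fell, beside 1105 and 6502 of all 10385 genes. That library's mitochondrial genes and copies held 68.1% of TPM, against 82.1% and 80.2% in its group. Without liver CCl4 replicate 1, 3 rose and 2 fell, beside 1039 and 3908 of all genes. The fall count was 2 to 3 when any other liver library was left out, beside 3907 to 4643 of all genes. In 1 fit over all 12 libraries Nupr1, Ddit3 and Herpud1 were called, beside 334 rises and 1402 falls of all genes. With no filter on low TPM these 3, Asns and P4hb were called, beside 2007 rises and 4527 falls of all 24989 genes.

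**Figure D1:**
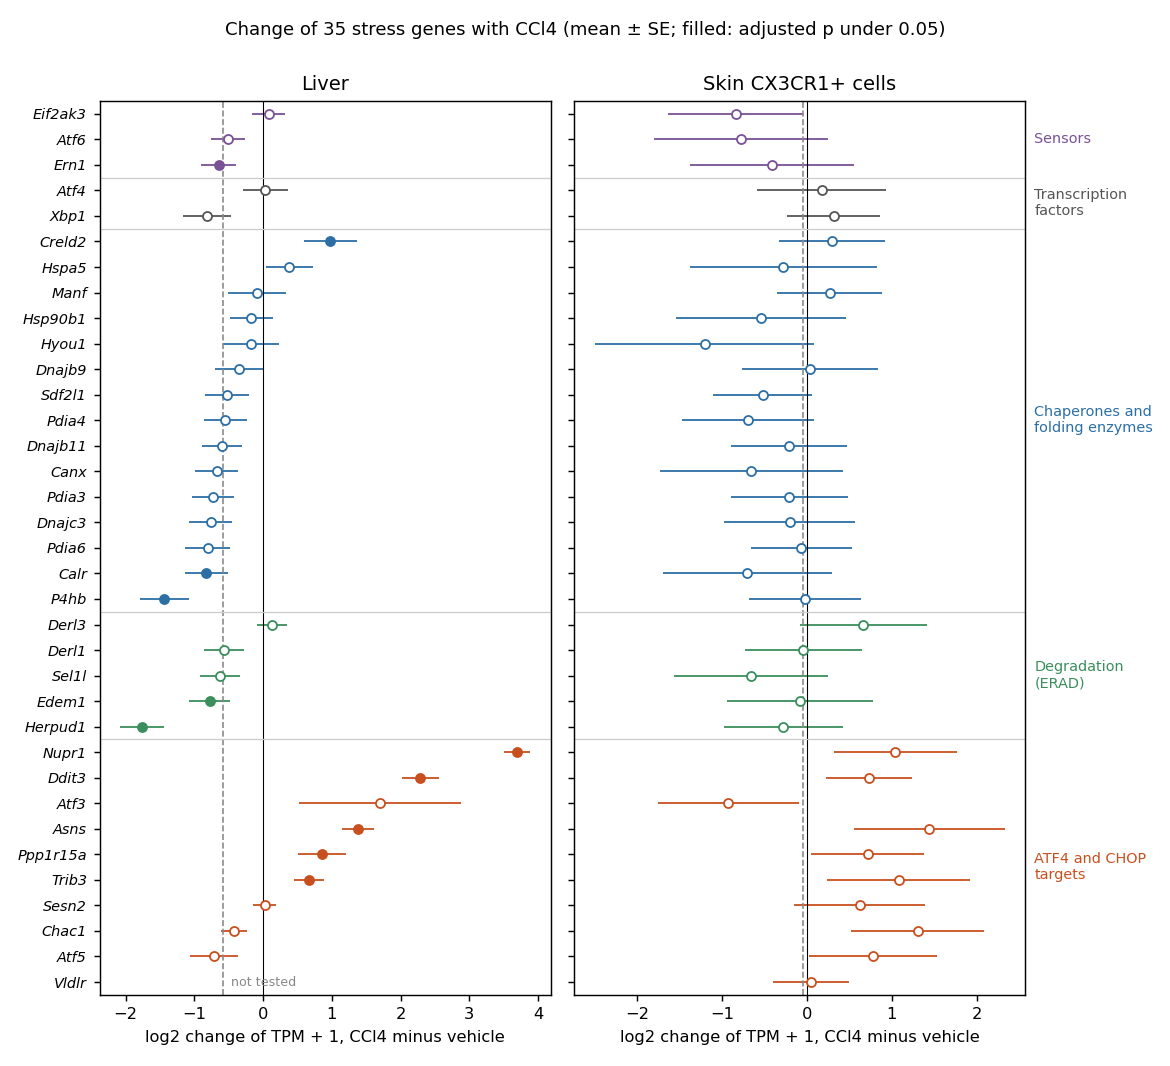
Change of each of the 35 genes with CCl4 in liver (left) and in skin CX3CR1+ cells (right), as log2 of TPM + 1, CCl4 minus vehicle, mean with its standard error from limma over 3 libraries a group, grouped by role. Filled points passed an adjusted p of 0.05, the dashed line is the median of all genes tested (-0.59 in liver, -0.05 in skin). In liver the filled points to the right are 5 ATF4 and CHOP targets and Creld2, and no point is filled in skin.

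The 3 sensors had 0.79 to 36.74 TPM over the 12 libraries. Ern1 (ENSMUSG00000020715), the kinase and ribonuclease IRE1, had 3.54, 2.61 and 4.69 TPM in CCl4 livers, against 4.51, 8.42 and 5.91 TPM in vehicle livers. The groups overlapped, since the highest CCl4 library was above the lowest vehicle library. Ern1 fell by 0.65 ± 0.25 on the log2 scale (SE; limma adjusted p = 0.0444), close to the -0.59 of all genes, and was at -0.14 with median-ratio scaling (adjusted p = 0.602). It was at 0.84 and called higher without mitochondrial genes and copies, and its call was lost in 4 of the 6 fits that left out 1 library. Eif2ak3, the eIF2alpha kinase PERK, averaged 3.60 ± 0.818 TPM with CCl4 and 3.43 ± 1.24 TPM with vehicle, and Atf6 averaged 5.44 ± 1.65 and 8.03 ± 1.13 TPM (SD, n = 3 each). Neither passed as deposited, at log2 changes of 0.08 and -0.51 (limma adjusted p = 0.785 and 0.0887). Eif2ak3 was called higher with median-ratio scaling at 0.55 and without mitochondrial genes and copies at 1.61, and Atf6 with the second of these at 1.04.

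Neither transcription factor passed the test in liver. Atf4 (ENSMUSG00000042406) had 25.60, 36.91 and 42.27 TPM in CCl4 livers, against 43.86, 22.85 and 37.41 TPM in vehicle livers. Both groups covered almost the same range, and the log2 change was 0.03 ± 0.33 (limma adjusted p = 0.942). It was 0.63 with median-ratio scaling, which was not called, and 1.10 and 1.72 with quantile normalization and without mitochondrial genes and copies, which were. Xbp1 (ENSMUSG00000020484) had 36.55, 29.06 and 59.64 TPM with CCl4 and 52.40, 90.61 and 74.73 TPM with vehicle. CCl4 replicate 3 was above vehicle replicate 1, so the groups overlapped, and the change was -0.81 ± 0.35 (limma adjusted p = 0.0608). It was -0.21 with median-ratio scaling, 0.36 with quantile normalization and a called 0.87 without mitochondrial genes and copies.

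Of the 10 ATF4 and CHOP targets, 5 rose in liver, 0 fell, 4 did not pass and Vldlr was not tested. Among all genes tested 10.3% rose and 51.1% fell. Asns and Nupr1 passed the filter only through their CCl4 libraries, so the count of 5 among 9 tested was partly set by the filter. Ddit3 (ENSMUSG00000025408), the transcription factor CHOP, had 26.21, 34.71 and 39.82 TPM in CCl4 livers, against 7.45, 4.70 and 6.15 TPM in vehicle livers. Every CCl4 library was far above every vehicle library, and Ddit3 rose by 2.28 ± 0.27 (log2 ± SE; limma adjusted p = 0.000109). Nupr1 (ENSMUSG00000030717), a small stress-induced nuclear protein, had 15.45, 15.89 and 11.88 TPM with CCl4, against 0.13, 0.20 and 0.23 TPM with vehicle. It was near 0 in all vehicle livers, and its rise of 3.69 ± 0.19 (limma adjusted p = 5.26e-07) was the largest among the 35 genes in liver. Its size depended on the value added before the log, since vehicle livers were below 1 TPM: it was 5.67 with 0.1 added and 1.90 with 5 added, both called. Asns (ENSMUSG00000029752), asparagine synthetase, had 5.16, 2.14 and 3.65 TPM with CCl4 and 0.75, 0.71 and 0.72 TPM with vehicle. The vehicle livers lay within a narrow range below all CCl4 livers, and Asns rose by 1.38 ± 0.24 (limma adjusted p = 0.000759). That call was lost in 1 fit over all 12 libraries (limma adjusted p = 0.190).

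Trib3 and Ppp1r15a rose less. Trib3 (ENSMUSG00000032715), a pseudokinase that restrains ATF4 and CHOP activity, had 4.29, 2.58 and 4.72 TPM in CCl4 livers, against 2.08, 1.73 and 2.22 TPM in vehicle livers. Its groups did not overlap, and it rose by 0.67 ± 0.22 (limma adjusted p = 0.0199), a call lost without CCl4 replicate 1 or without vehicle replicate 2, with no filter (0.0739) and in 1 fit over all 12 libraries (0.458). Ppp1r15a (ENSMUSG00000040435), also known as GADD34, the phosphatase subunit that reverses eIF2alpha phosphorylation, had 17.21, 19.54 and 15.46 TPM with CCl4 and 15.72, 4.91 and 9.54 TPM with vehicle. Vehicle replicate 1 was above CCl4 replicate 3, and the rise of 0.85 ± 0.34 (limma adjusted p = 0.0487) was lost in 5 of the 6 fits that left out 1 library, with 0.1 added before the log (0.0543), with no filter (0.148) and in 1 fit over all 12 libraries (0.302). Ddit3, Nupr1 and Asns kept their calls in all 6 such fits.

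The other targets did not pass the test in liver as deposited. Chac1, which degrades glutathione, had 1.71, 1.02 and 1.47 TPM in CCl4 livers, all below the 2.33, 2.38 and 1.88 TPM in vehicle livers, with a change of -0.42 ± 0.19 (limma adjusted p = 0.0694). It was -0.03 and -0.23 with median-ratio scaling and quantile normalization, and a called 0.84 without mitochondrial genes and copies. Atf5, a transcription factor of the same pathway, averaged 52.7 ± 26.5 TPM with CCl4 and 80.9 ± 2.74 TPM with vehicle (SD, n = 3 each; limma adjusted p = 0.0970). Its change was -0.72 as deposited, -0.11 and 0.51 with the first 2 of those scalings, and a called 0.97 with the third. Sesn2, a stress-induced inhibitor of mTORC1 signalling, was at 1.17 ± 0.115 and 1.14 ± 0.188 TPM (limma adjusted p = 0.922), and was called higher, at 1.29, with the third alone. Atf3, a stress-induced repressor, had 41.29, 80.05 and 106.97 TPM with CCl4, against 104.78, 0.61 and 62.32 TPM with vehicle. Vehicle replicate 1 was close to its highest value and vehicle replicate 2 was below 1 TPM, and its change of 1.70 ± 1.18 did not pass (limma adjusted p = 0.223), nor did those of 2.22, 2.71 and 3.48 under the 3 other scalings. Single libraries decided it: it was -0.19 without vehicle replicate 2, but 2.83 and called without vehicle replicate 1 (limma adjusted p = 0.0161) and 2.46 and called without vehicle replicate 3 (0.0328). Vldlr, a lipoprotein receptor, stayed at 0.17 to 0.33 TPM with CCl4 and 0.07 to 0.16 TPM with vehicle, below the filter.

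**Figure D2:**
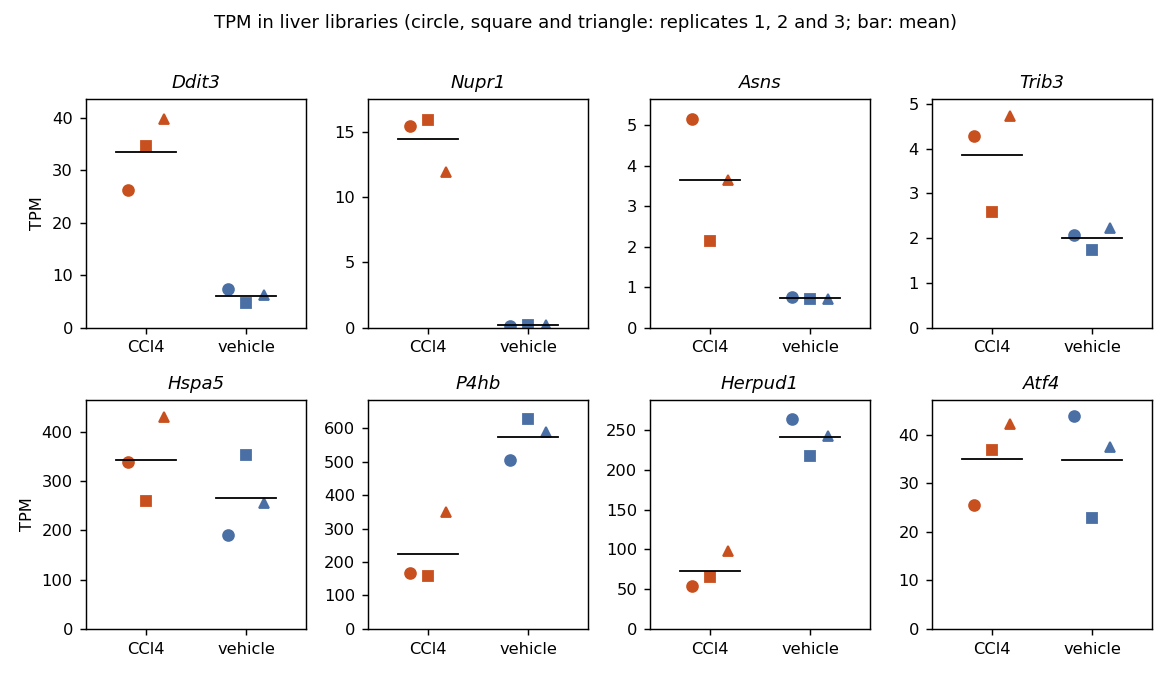
TPM of 8 genes in each liver library, CCl4 left and vehicle right, with circle, square and triangle for replicates 1, 2 and 3 and a bar at the mean. Ddit3, Nupr1, Asns and Trib3 lie higher in all 3 CCl4 livers than in any vehicle liver, P4hb and Herpud1 lie lower in all 3 as deposited but not under every scaling, and Hspa5 and Atf4 overlap.

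Of the 15 chaperones and folding enzymes, 1 rose, 2 fell and 12 did not pass in liver as deposited. Among all genes tested 10.3% rose and 51.1% fell. With median-ratio scaling 2 rose and 1 fell, beside 17.7% and 26.2% of all genes. With quantile normalization 8 rose and 0 fell, beside 17.6% and 24.1%. Without mitochondrial genes and copies 14 rose and 0 fell, beside 66.8% and 4.2%. The median change of the 15 was -0.55 as deposited, beside -0.59 for all genes, and 0.06 with median-ratio scaling, beside -0.11. It was 0.60 with quantile normalization, beside -0.12, and 1.13 without mitochondrial genes and copies, beside 0.85. The 7 ATF4 and CHOP targets that were past 1 TPM in at least 1 vehicle liver, which leaves out Nupr1, Asns and Vldlr, had medians of 0.67, 1.11, 0.99 and 2.25 under the same 4 scalings. The difference of these medians was not tested. Hspa5 (ENSMUSG00000026864), the main ER chaperone BiP, had 338.12, 258.92 and 430.54 TPM in CCl4 livers, against 189.64, 353.14 and 254.53 TPM in vehicle livers. The ranges overlapped, and the change of 0.38 ± 0.34 did not pass as deposited (limma adjusted p = 0.346). It was 0.99, 1.87 and 2.09 with median-ratio scaling, quantile normalization and the total without mitochondrial genes and copies, each of them called. Hsp90b1, the ER form of HSP90, averaged 239 ± 60.8 TPM with CCl4 and 265 ± 36.2 TPM with vehicle (SD, n = 3 each), a change of -0.17 that was a called 1.20 and 1.53 under the last 2 of these scalings.

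As deposited, P4hb and Calr fell and Creld2 rose. P4hb (ENSMUSG00000025130), protein disulfide isomerase, had 168.54, 158.03 and 348.64 TPM in CCl4 livers, against 504.45, 628.58 and 587.96 TPM in vehicle livers. All CCl4 livers were lower, and P4hb fell by 1.44 ± 0.36 (limma adjusted p = 0.00534), in all 6 fits that left out 1 library and with median-ratio scaling at -0.82, but it was at -0.02 with quantile normalization and 0.27 without mitochondrial genes and copies. Calr (ENSMUSG00000003814), the lectin chaperone calreticulin, had 200.72, 191.99 and 302.23 TPM with CCl4 and 353.72, 452.86 and 408.30 TPM with vehicle. Its groups did not overlap, but the fall of 0.83 ± 0.31 (limma adjusted p = 0.0377) was called higher, at 0.59 and 0.88, under the last 2 scalings, and was lost in 5 of the 6 fits that left out 1 library. Creld2 (ENSMUSG00000023272), a stress-induced ER and secreted protein, had 34.67, 26.03 and 39.13 TPM with CCl4 and 8.35, 28.53 and 17.33 TPM with vehicle. Vehicle replicate 2 was above CCl4 replicate 2, and the rise of 0.98 ± 0.39 (limma adjusted p = 0.0459) was lost in 4 of those 6 fits, with 0.1 added before the log (0.0502), with no filter (0.145) and in 1 fit over all 12 libraries (0.207).

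The 12 folding genes that did not pass had changes from -0.81 (Pdia6) to 0.38 (Hspa5) as deposited, and from -0.20 (Pdia6) to 0.99 (Hspa5) with median-ratio scaling. With quantile normalization they ran from 0.24 (Dnajc3) to 1.87 (Hspa5), and without mitochondrial genes and copies from 0.89 (Pdia6) to 2.09 (Hspa5), where all 12 were called higher. Among them Canx, Dnajb11, Dnajc3, Pdia3 and Pdia6 were lower in every CCl4 liver than in any vehicle liver, which with P4hb and Calr made 7 of 15, beside 58.8% of all genes tested that were lower in this way and 11.4% that were higher. Canx is the membrane partner of calreticulin, Pdia3 and Pdia6 are disulfide isomerases, and Dnajb11 and Dnajc3 are co-chaperones of BiP. Pdia3 averaged 110 ± 26.4 TPM with CCl4 and 181 ± 19.7 TPM with vehicle, and Dnajc3 24.3 ± 9.12 and 40.3 ± 3.65 TPM (SD, n = 3 each; limma adjusted p = 0.0555 and 0.0501). The other 7 overlapped between groups. They were Hspa5, Hsp90b1, the BiP exchange factor Hyou1, the co-chaperone Dnajb9, the isomerase Pdia4, Sdf2l1, and Manf, a stress-induced secreted protein at 124 ± 51.4 TPM with CCl4 and 133 ± 55.8 TPM with vehicle.

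Of the 5 genes of ER-associated degradation, 2 fell and 3 did not pass in liver as deposited, beside the 51.1% of all genes that fell. Without mitochondrial genes and copies 4 of the 5 were called higher, beside 66.8% of all genes. Herpud1 (ENSMUSG00000031770), an ER membrane protein of the degradation complex, had 54.01, 65.80 and 97.40 TPM in CCl4 livers, against 263.60, 216.71 and 242.53 TPM in vehicle livers. The highest CCl4 liver was well below the lowest vehicle liver, and Herpud1 fell by 1.76 ± 0.32 (limma adjusted p = 0.00101). It was the only one of the 5 falls still called with median-ratio scaling and with quantile normalization, at -1.15 and -0.43, and was at -0.06 without mitochondrial genes and copies. Edem1 (ENSMUSG00000030104), which routes glycoproteins to degradation, had 12.30, 18.98 and 24.51 TPM with CCl4, against 27.32, 35.47 and 32.00 TPM with vehicle. All CCl4 livers were lower, but the fall of 0.78 ± 0.30 (limma adjusted p = 0.0420) became -0.19 with median-ratio scaling, 0.15 with quantile normalization and a called 0.88 without mitochondrial genes and copies. It was lost in 5 of the 6 fits that left out 1 library. Sel1l, the adaptor of the HRD1 ubiquitin ligase, and the derlins Derl1 and Derl3 had changes of -0.63, -0.57 and 0.12 as deposited, and of 1.03, 1.09 and 1.52, all called, without mitochondrial genes and copies.

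**Figure D3:**
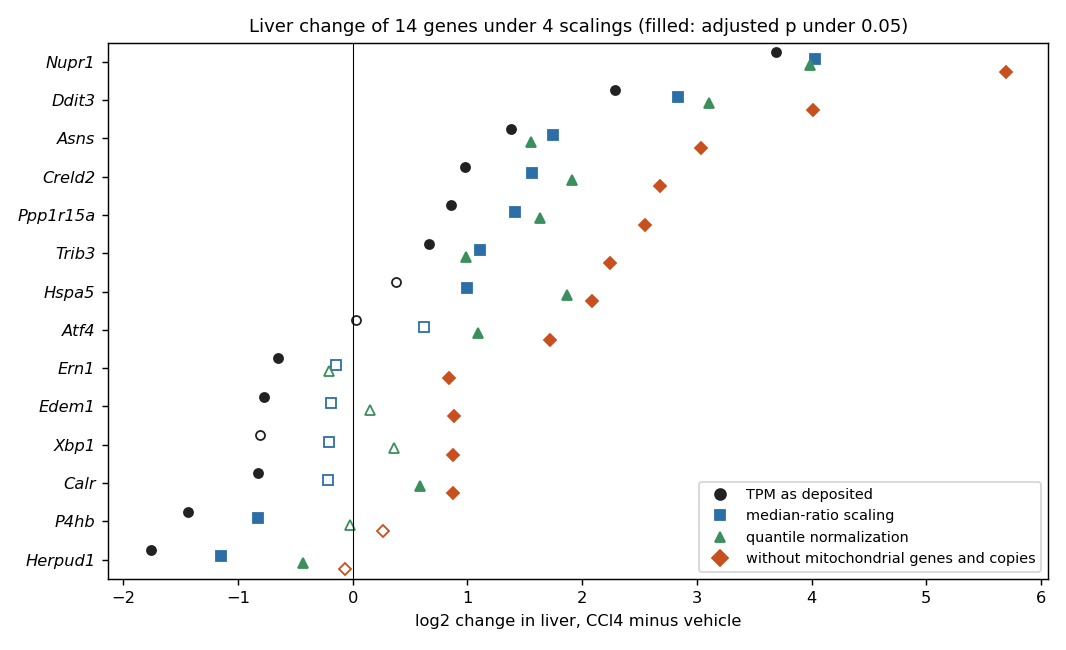
Log2 change in liver, CCl4 minus vehicle, of the 14 genes described library by library, under the deposited TPM, median-ratio scaling, quantile normalization, and the total rebuilt without mitochondrial genes and copies. Filled symbols passed an adjusted p of 0.05. Nupr1, Ddit3, Asns, Creld2, Ppp1r15a and Trib3 are filled and above 0 under all 4, while Ern1, Edem1, Xbp1, Calr and P4hb lie on both sides of 0.

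Liver is a mixture of cells, and in these bulk libraries fewer cells of a type and less RNA per cell cannot be told apart. Beside the gene groups above, macrophage markers summed to 149 to 528 TPM with CCl4 and 23.1 to 49.3 TPM with vehicle, and neutrophil markers to 33.0 to 352 TPM with CCl4 and 0.12 to 0.86 TPM with vehicle. Of 10 markers of B and plasma cells, which hold much ER, Sdc1 had 21.8 to 59.6 TPM with CCl4 and 79.7 to 101 TPM with vehicle and fell. The fall of Sdc1 did not hold under all 3 other scalings. In vehicle livers Sdc1 was far above the other 9 markers together, so it is not read here as a measure of these cells. The other 9 summed to 8.76 to 67.9 TPM with CCl4 and 2.75 to 3.01 TPM with vehicle, among them the antibody light chain gene Igkc, which rose, at 6.98 to 42.0 TPM with CCl4 and 0.64 to 0.82 TPM with vehicle. Of 10 immediate early genes raised by tissue dissociation, 1 rose and 1 fell. The rise held under the 3 other scalings and the fall did not. The part of these cell types in the changes of the 35 genes was not tested.

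The distance between both arms was also read within each library, as the mean log2(TPM + 1) of the 15 chaperone and folding genes minus that of the 10 targets. This difference does not depend on the total of a library apart from the added 1. It was 2.89, 2.58 and 3.19 in CCl4 livers, against 3.62, 5.07 and 4.12 in vehicle livers. All 3 CCl4 livers were lower, with means of 2.89 ± 0.310 and 4.27 ± 0.735 (SD, n = 3 each), a change of -1.38. With the median over genes in place of the mean the change was -2.19, and with quantile normalization it was -0.82. As deposited the chaperone means overlapped, at 6.06, 5.68 and 6.56 with CCl4 and 6.19, 6.85 and 6.53 with vehicle. The target means were 3.17, 3.10 and 3.37 with CCl4 and 2.57, 1.78 and 2.41 with vehicle. The largest target changes were 3.69 (Nupr1), 2.28 (Ddit3), 1.70 (Atf3) and 1.38 (Asns). Nupr1 and Asns were below 1 TPM in vehicle livers. Atf3 was at 0.61 TPM in vehicle replicate 2, the library with the difference of 5.07. No test was made, since the genes were chosen with results known.

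**Figure D4:**
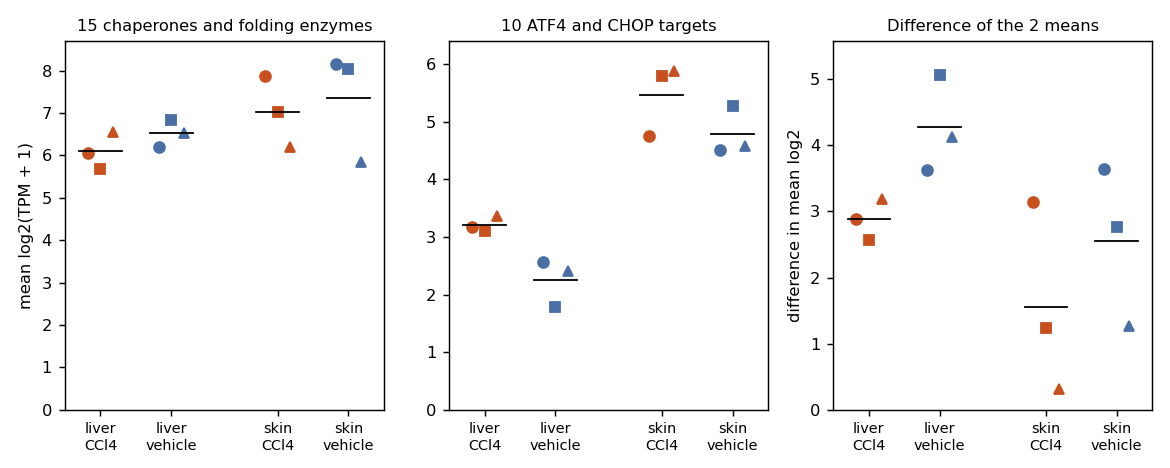
Mean log2(TPM + 1) of 15 chaperones and folding enzymes, of 10 ATF4 and CHOP targets, and their difference, in each of 12 libraries, CCl4 left of vehicle in each tissue, with circle, square and triangle for replicates 1, 2 and 3 and a bar at the group mean. In liver the difference is 2.58 to 3.19 with CCl4 and 3.62 to 5.07 with vehicle, and in skin the groups overlap.

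In skin CX3CR1+ cells none of the 35 genes passed the test, and all were tested. Among all 13767 genes tested limma called 0 higher and 0 lower (0%), with 113 higher and 175 lower at an unadjusted p under 0.05, and 1 fit over all 12 libraries called 0 and 1. The smallest unadjusted p among the 35 genes was 0.131, for Chac1. The spread between skin libraries was wide, with standard errors of the log2 change from 0.45 to 1.29 for these genes. A p that missed the threshold does not show that the levels were alike.

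Most ATF4 and CHOP targets were on the higher side with CCl4 in skin. The change was above 0 for 9 of 10, with a median of 0.76 beside -0.05 for all genes, and without CCl4 replicate 3 it was above 0 for 8 of 10, with a median of 0.55 beside -0.04. Without the third replicate of both groups it was above 0 for 7 of 10, with a median of 0.42 beside -0.21. Ddit3 had 134.69, 148.75 and 152.87 TPM in CCl4 libraries, against 98.16, 94.76 and 70.89 TPM in vehicle libraries. It was the only 1 of the 35 genes whose skin groups did not overlap, beside 2.56% of all genes tested that were higher in this way and 2.72% that were lower, and its change was 0.73 ± 0.51 (limma adjusted p = 1.00), or 0.70 without CCl4 replicate 3.

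Asns, Chac1, Trib3 and Nupr1 reached their highest skin levels in CCl4 libraries. Asns had 18.29, 68.07 and 242.81 TPM with CCl4, against 25.28, 32.42 and 17.50 TPM with vehicle, with replicate 3 far above the rest. Its change of 1.44 ± 0.89 was 0.53 without that library. Chac1 had 4.69, 12.96 and 31.99 TPM with CCl4 and 3.51, 7.22 and 3.69 TPM with vehicle, again highest in CCl4 replicate 3, and its change of 1.30 ± 0.79 was 0.68 without it. Trib3 had 2.11, 13.86 and 18.28 TPM with CCl4, against 3.77, 6.06 and 1.80 TPM with vehicle, and its change of 1.08 ± 0.84 was 0.58 without CCl4 replicate 3. CCl4 replicate 1 lay within the vehicle range for Asns, Chac1 and Trib3. Nupr1 had 256.21, 1024.74 and 1018.13 TPM with CCl4 and 160.59, 323.99 and 583.68 TPM with vehicle, with the 2 highest libraries both from CCl4, and its change of 1.04 ± 0.72 was 0.71 without CCl4 replicate 3.

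The remaining targets overlapped more. Ppp1r15a had 528.22, 1699.11 and 368.27 TPM with CCl4, against 335.06, 676.66 and 328.82 TPM with vehicle, so each group had its highest value in replicate 2. Its change was 0.72 ± 0.67, and 1.17 without CCl4 replicate 3. Atf3 was the target with a change below 0, at -0.92 ± 0.83, which was -0.10 without CCl4 replicate 3. It had 289.90, 463.40 and 65.66 TPM with CCl4, against 210.14, 883.08 and 329.17 TPM with vehicle. Atf5 stayed between 0.86 and 10.49 TPM in the 6 libraries, Sesn2 between 4.41 and 30.42 TPM, and Vldlr between 0.64 and 1.67 TPM. The 10 immediate early genes raised by tissue dissociation summed to 7665, 8784 and 1800 TPM in skin CCl4 libraries. With vehicle they summed to 5779, 5740 and 3183 TPM in skin, and in liver libraries to 169 to 540 TPM. The part of dissociation in the skin values of the targets was not tested.

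**Figure D5:**
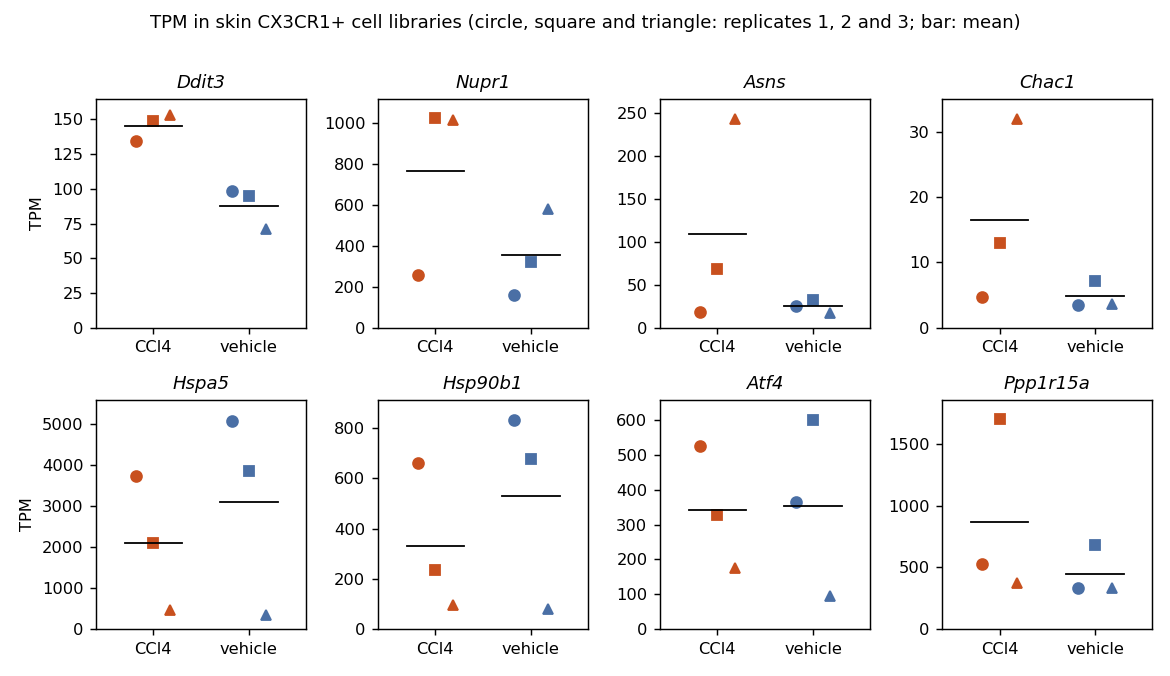
TPM of 8 genes in each skin CX3CR1+ cell library, CCl4 left and vehicle right, with circle, square and triangle for replicates 1, 2 and 3 and a bar at the mean. Ddit3 separates both groups, Asns and Chac1 are highest in CCl4 replicate 3, and Hspa5 and Hsp90b1 are lowest in the third replicate of each group.

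Chaperones differed between skin libraries more than between treatments. Hspa5 had 3725, 2092 and 456.47 TPM in CCl4 libraries, against 5072, 3841 and 327.10 TPM in vehicle libraries. Replicate 3 was lowest in both groups, as it was for Hsp90b1 with 662.98, 234.38 and 94.22 TPM with CCl4 and 831.67, 677.54 and 79.30 TPM with vehicle. Their changes of -0.28 and -0.54 were 0.59 and 0.15 without CCl4 replicate 3. The summed TPM of the 15 genes was 7952, 4561 and 1927 with CCl4, against 10117, 8354 and 1562 with vehicle. Their change was below 0 for 12 of 15, with a median of -0.21, from -1.21 (Hyou1) to 0.29 (Creld2). Without CCl4 replicate 3 it was above 0 for 9 of 15, with a median of 0.13 and a range of -0.51 to 0.62, and without the third replicate of both groups the median was -0.64, beside -0.21 for all genes. The within-library difference between chaperones and targets was 3.14, 1.23 and 0.31 with CCl4 and 3.64, 2.76 and 1.26 with vehicle. The groups overlapped, with means of 1.56 ± 1.44 and 2.56 ± 1.20 (SD, n = 3 each), a change of -0.996. It was -0.37 without CCl4 replicate 3, -1.64 without vehicle replicate 3 and -1.02 without both, and ranged from -1.78 to -0.37 when any 1 library was left out.

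Sensors, transcription factors and degradation genes also overlapped in skin. Atf4 had 525.20, 328.59 and 174.46 TPM with CCl4, against 366.08, 601.76 and 94.94 TPM with vehicle, and Xbp1 322.07, 341.93 and 261.17 TPM with CCl4, against 325.90, 326.80 and 138.88 TPM with vehicle. Both were lowest in replicate 3 of each group, and their changes of 0.17 and 0.32 were 0.59 and 0.43 without CCl4 replicate 3. Ern1, Eif2ak3 and Atf6 had changes of -0.41, -0.84 and -0.78, or -0.04, -0.32 and -0.27 without that library. Herpud1, which fell in liver, had 520.87, 402.66 and 126.51 TPM with CCl4 and 633.53, 389.63 and 192.64 TPM with vehicle, a change of -0.28 ± 0.70 that was 0.34 without CCl4 replicate 3. P4hb had 178.68, 191.21 and 141.06 TPM with CCl4, against 208.28, 337.37 and 71.18 TPM with vehicle, and Creld2 212.21, 142.73 and 120.45 TPM with CCl4, against 254.92, 108.98 and 70.94 TPM with vehicle. Their changes were -0.02 and 0.29, or 0.11 and 0.47 without CCl4 replicate 3. Among these genes no skin group stood clear of the other. The summed marker levels of skin macrophages and of Langerhans and dendritic cells, given above, were lowest in CCl4 replicate 3, and that library's 6 neutrophil markers summed to 581 TPM, against 21.4 to 91.4 TPM in the other 5. Their part in the values of the 35 genes was not tested.

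The effect of CCl4 was compared between the tissues in 1 limma model over 12 libraries and 9255 genes tested in both. Of the 34 genes tested 0 passed in either direction, beside 0.151% of all genes with a higher effect in liver and 0.0648% with a lower one. The lowest p-values were those of Nupr1, whose effect was 2.65 ± 0.80 higher in liver than in skin on the log2 scale (unadjusted p = 0.00556, limma adjusted p = 0.117), and of Ddit3, 1.55 ± 0.47 higher (unadjusted p = 0.00579, limma adjusted p = 0.118). Without skin vehicle replicate 3 Ddit3 passed (limma adjusted p = 0.0491), as it did without the third replicate of both skin groups (0.0421). Its difference was 2.04 with median-ratio scaling, not called, and a called 2.37 with quantile normalization (0.0358). Without mitochondrial genes and copies Ddit3 at 3.29 (0.00239) and Nupr1 at 4.66 (0.00990) passed. These sizes move with the scaling: the median difference of all genes was -0.54 as deposited, -0.13, -0.15 and 0.91 under the 3 other scalings. Chac1 was next, with an effect 1.73 ± 0.76 lower in liver (limma adjusted p = 0.228), or 1.10 lower without skin CCl4 replicate 3 (0.364). Its difference was -1.40, -1.64 and -0.46 under the 3 other scalings, none called. Tissue, assay and mouse strain cannot be told apart here.

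The order of the 35 transcript levels differed between tissues, as TPM, which is per length. With CCl4 the highest in liver were Hspa5 at 343 ± 85.9, Hsp90b1 at 239 ± 60.8, Calr at 232 ± 61.3 and P4hb at 225 ± 107 TPM, whose ranges overlapped. With vehicle P4hb led at 574 ± 63.3 TPM, above Calr at 405 ± 49.7 TPM in every library, followed by Hspa5 at 266 ± 82.3, Hsp90b1 at 265 ± 36.2 and Herpud1 at 241 ± 23.5 TPM, which overlapped (SD, n = 3 each). In skin Hspa5 led on average in both groups, at 2091 ± 1634 TPM with CCl4 and 3080 ± 2462 TPM with vehicle. It was followed by Ppp1r15a at 865 ± 727 and Nupr1 at 766 ± 442 TPM with CCl4, and by Calr at 743 ± 547 and Pdia3 at 543 ± 312 TPM with vehicle, neighbours that did not differ beyond their spread. Nupr1 was thus among the leading genes in skin and among the lowest in vehicle liver, at 0.187 ± 0.0513 TPM. Atf5 went the other way, at 52.7 ± 26.5 TPM in CCl4 liver and 80.9 ± 2.74 TPM in vehicle liver, but at 5.27 ± 4.59 TPM in CCl4 skin and 2.58 ± 2.53 TPM in vehicle skin.

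Other genes of the pathway were taken from lists by function, and each list's count is read beside the same 10.3% and 51.1% of all genes. In liver, amino acid genes of the ATF4 program were split, with 5 higher and 4 lower of 11 tested, of 18 listed. Psat1 of serine synthesis rose by 1.93 to 3.99 ± 1.50 TPM with CCl4, against 0.267 ± 0.0611 TPM with vehicle, and Aldh18a1 of proline synthesis rose by 0.93. Cth, which makes cysteine from cystathionine, fell by 2.15 to 64.9 ± 30.5 TPM with CCl4, against 272 ± 6.53 TPM with vehicle (SD, n = 3 each; limma adjusted p = 0.000602). Of these, 4 rises and 1 fall held under the 3 other scalings. Psat1 and Aldh18a1 were below 1 TPM in vehicle livers and passed the filter through CCl4 livers, as did Fgf21, Rcn3 and Hspa1a below. Among 16 other tested ATF4 targets 4 rose and 4 fell: the heme oxygenase gene Hmox1 rose by 2.65 and the hormone gene Fgf21 by 1.32, both held under the 3 scalings, as did all 4 rises, and Klhl24 fell by 1.21, while 0 of the 4 falls held. Of 12 tRNA synthetase genes 3 fell (Tars by 1.37, Aars by 1.00 and Mars by 0.71) and 0 rose. Of 15 genes of eIF2 kinases and eIF2 control 1 rose and 8 fell, among them Eif2ak1, the heme-regulated kinase, by 1.35, and the exchange factor subunits Eif2b1 and Eif2b2 by 1.05 and 1.03. Of these 3 and 8 falls 0 held under the 3 other scalings.

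ER folding genes outside the 35 gave 4 rises and 15 falls of 31 tested in liver. The calcium-binding reticulocalbins Rcn1 and Rcn3 rose by 2.34 and 1.97, to 8.23 ± 3.99 and 4.43 ± 2.08 TPM with CCl4, against 0.727 ± 0.351 and 0.337 ± 0.225 TPM with vehicle (SD, n = 3 each). Sil1, an exchange factor of BiP, fell by 1.71. All 4 rises were also called under the 3 further scalings, and 0 of the 15 falls were. Of 23 further degradation genes 16 fell and 0 rose, with a median of -0.84, among them the ubiquitin ligases Rnf139 and March6 by 1.32 and 1.41 and Derl2 by 1.77. Of 17 translocon genes 7 fell (Ssr4 by 1.25, Sec62 by 1.09 and Spcs1 by 1.15), of 9 oligosaccharyltransferase genes 4 fell (Dad1 by 1.55, Rpn1 by 0.93 and Rpn2 by 0.92), and 0 rose in either list. Of 12 tested regulators of the pathway 5 fell, with Tmbim6, an inhibitor of IRE1, by 2.05, the liver transcription factor Creb3l3 by 2.00 and the Xbp1 ligase Rtcb by 1.01. In these 4 lists 0 falls held under the 3 other scalings.

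Cytosolic heat shock genes, which answer unfolded protein outside the ER, gave 4 rises and 0 falls of 14 tested in liver, with a median of 0.05 beside -0.59 for all genes. Hspb1 rose by 1.63, to 30.2 ± 13.5 TPM with CCl4, against 8.52 ± 0.904 TPM with vehicle (SD, n = 3 each), and Hspa1a and Hspa1b by 1.35 and 1.34. Hspa1a and Hspa1b are almost identical in sequence, and how reads were divided between them is uncertain. All 4 rises held under the 3 other scalings. In skin 0 genes of any of these 10 lists were called, with list medians from -0.09 to 0.30.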

How the data were processed

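RNA was measured in 12 mouse libraries, 3 per group, and the authors deposited 1 table of TPM for 57180 genes. The submitters' processing notes name GRCm39 and the tools fastp, HISAT2, StringTie and RSEM, without versions or the role of each. The labels describe 1 protocol for all libraries, TRIzol RNA with poly(A) selection and a stranded mRNA kit, which is not a smart-seq protocol. TPM holds no read depth, so depth is unknown and no counting interval is given. Any gene taking more of the total lowers the rest, and an exact 0 may be an estimate that failed.

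Gene IDs were matched to symbols through Ensembl and RefSeq name tables, which named 51884 of them, and 66 IDs that shared a symbol with a more abundant ID were left unnamed. The genes and lists were chosen with earlier results of these data known. Values were analysed as log2(TPM + 1), a scale that understates changes of low genes, in R 4.3.3 with limma 3.58.1 (lmFit, eBayes with trend, two-sided). Genes with at least 1 TPM in at least 3 of the 6 libraries of a tissue were tested, and calls use a Benjamini-Hochberg adjusted p under 0.05 over all genes tested, computed by limma. Liver and skin were fitted separately, and the difference of their effects in 1 model of 4 group means over genes tested in both. The fits were tested on simulated data. Values of each library are printed for genes called in any comparison and for Hspa5, Ddit3, Atf4 and Xbp1, and from each list of other genes the up to 3 called genes with the lowest p are named. Library values of Atf3, Chac1 and Hsp90b1, the medians over 7 targets and the values of Sdc1 and Igkc were added after their values were seen.

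Alternatives were pseudocounts of 0.1 and 5, no filter or one at 5 TPM, median-ratio scaling, quantile normalization, a total without 37 mitochondrial genes and 16 nuclear copies (blastn 2.17.0, at least 90% identity over at least 50% of the copy), a replicate block, 1 fit over 12 libraries, and leaving out each library. Leaving out the third replicate of both skin groups was added after seeing the data. Promoters were searched in RefSeq sequences of GRCm38.p6, another build than that of the table. No pair of columns was identical.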

Additional observations from a re-analysis of the deposited data

How the results depend on the processing

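Counts of the 35 genes called in liver, 6 higher and 5 lower, depended on scaling and filter, as did those of all genes. The higher count was 3 without a filter on low TPM, 14 with quantile normalization, 31 when the total left out mitochondrial genes and copies, and 2 in 1 fit over all 12 libraries. Among all genes it was 2007 of 24989, 1826 of 10385, 6922 of 10362 and 334 of 10385 under these 4 settings. The lower count under these 4 settings was 2, 1, 0 and 1, and it was 2 with median-ratio scaling. For all genes it was 4527, 2507, 435 and 1402, and 2720 with median-ratio scaling. Leaving out 1 library gave 3 to 6 higher and 2 to 17 lower, beside 967 to 1105 higher and 3907 to 6502 lower of all 10385 genes. Median-ratio scaling moved the higher count to 9, beside 1841 of all 10385 genes. The counts of 0 in skin did not change under any setting run. For the tissue difference, 1 gene passed as a higher effect in liver with a pseudocount of 0.1, with quantile normalization and without the third replicate of both skin groups. Beside it 127, 44 and 268 of all 9255 genes passed as higher. Without mitochondrial genes and copies 2 passed, beside 543 of all 9237 genes, and leaving out 1 library gave 0 to 1, beside 3 to 179 of all genes. The liver change of the difference between chaperones and targets, -1.38, was -2.19 with the median over genes and -0.82 with quantile normalization. The cause of these shifts was not tested, apart from the lower weight of mitochondrial transcripts built into the rescaled total.

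Several single genes turned direction. In liver Ern1 was 0.84, Xbp1 0.87, Calr 0.88, P4hb 0.27 and Edem1 0.88 without mitochondrial genes and copies, and Xbp1 was 0.36, Calr 0.59 and Edem1 0.15 with quantile normalization. Liver Atf3, not called, was -0.19 without vehicle replicate 2. Liver Atf4 ranged from -0.24 to 0.23 when 1 library was left out. In skin, where no gene was called, leaving out 1 library gave -1.33 to 0.22 for Ern1, -0.0907 to 0.52 for Xbp1, -0.59 to 0.73 for Atf4, -1.53 to 0.59 for Hspa5, -0.65 to 0.47 for P4hb, -0.11 to 0.80 for Creld2, -0.96 to 0.46 for Edem1 and -0.73 to 0.34 for Herpud1. Skin Atf4 was -0.0024 with quantile normalization and -0.18 without the third replicate of both groups, and skin P4hb was 0.0495 with median-ratio scaling and 0.0805 without replicate 1 of both groups.

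Replicate numbers were not used as pairs in the main fits. They were taken from the titles, and in 1 liver and 3 skin libraries the library name carries another number. Deviations of same-numbered libraries correlated at -0.0381, 0.0796 and 0.0683 in liver and at 0.587, 0.0923 and 0.350 in skin. With a replicate block 7 genes were higher and 4 lower in liver, 0 and 0 in skin, and 1 passed in the tissue difference, Nupr1 (limma adjusted p = 0.0283). Among all genes 1146 were higher and 5347 lower in liver with the block, and 185 and 160 in the tissue difference. Atf3 was called higher in liver with the block (limma adjusted p = 2.57e-05). Its standard error was 0.38 there and 1.18 without the block, while its vehicle livers ran from 0.61 to 104.78 TPM. In the liver fit with the block, limma took the standard errors from a trend over all genes, not from each gene's own spread. This p-value therefore does not measure the spread of Atf3. The same holds for the other liver calls with the block. In skin, CCl4 replicates 1 and 3 correlated best with the vehicle library of their own number, and CCl4 replicate 2 with vehicle replicate 3 (0.158). In liver only CCl4 replicate 2 correlated best with its own number. These correlations do not settle whether the libraries were pairs. TPM holds no depth, so the limit of detection for low genes such as Sesn2 and Vldlr is unknown.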
